A study of Homo sapiens with 49 samples.

Results

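H3K4me3 regions found in Ishikawa cells and in neither T-47D list numbered 9069. They were 34.2% of the 26520 Ishikawa regions that could have qualified (exact 95% interval 33.6 to 34.8%), and came from a list of 29597. Each was a peak of the Ishikawa H3K4me3 list under DMSO that was below 2000 bp wide, lay on chromosomes 1 to 22 or X, overlapped a peak of the Ishikawa list under 17β-estradiol (E2), and overlapped no peak of either T-47D H3K4me3 list. An overlap of 1 bp counted. The regions were thus chosen by their H3K4me3 values, so the difference in H3K4me3 between the lines is a description and supports nothing. They were divided into 3397 regions within 250 bp of an annotated transcription start site and 5672 regions away from start sites. The comparison sets were the 26520 eligible regions, which include the Ishikawa-only regions, and the 15362 eligible regions that overlapped both T-47D lists, called common regions below.

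The data are ChIP-seq peak lists of Ishikawa, a line from an endometrial adenocarcinoma, and T-47D, a line from a ductal carcinoma of the breast. Both were grown in RPMI with serum, moved to hormone-depleted medium, and given DMSO (the vehicle) or 10 nM E2, for 8 h before ChIP of a histone mark and for 1 h before ChIP of a protein. SIN3A was instead compared between charcoal-stripped and full medium. Of 49 samples, 45 had a list (21 from Ishikawa, 24 from T-47D). Each tissue is represented by 1 tumour cell line, and every group was 1 library except T-47D RNA polymerase II (RNAPII), which had 2 per treatment. No difference below could therefore be tested against replicate spread. Shares carry exact binomial intervals, which cover counting error only, and the lists give no sequencing depth.

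H3K4me3 is the trimethylated form of lysine 4 of histone H3. It is written by SET1 and MLL complexes around the start sites of genes that are transcribed or poised, most often at CpG islands, which are stretches that kept their CG dinucleotides. The monomethylated form, H3K4me1, marks enhancers and the flanks of promoters, and active enhancers can also carry a low level of H3K4me3. TAF1 is the largest subunit of TFIID, the general factor that recognises core promoters and binds trimethylated H3K4 through its partner TAF3. JUN is a subunit of the AP-1 dimer, LSD1 removes methyl groups from mono- and dimethylated H3K4, and SIN3A is the scaffold of a histone deacetylase complex.

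The sequences below show the kinds of DNA under the Ishikawa-only regions. They were read from GRCh37, which is the build of the peak lists (hg19). The first group is the 200 bp immediately upstream of an annotated start site, given 5′ to 3′ on the strand of the gene, with every CG dinucleotide in capitals. FAT2 (chr5:150970893-150971092, minus strand) and MUC16 (chr19:9121067-9121266, minus strand) show CpG-poor promoters. WNT7A (chr3:13921569-13921768, minus strand), HOXD9 (chr2:176987247-176987446, plus strand) and COL6A2 (chr21:47517826-47518025, plus strand) show CpG-rich ones.
FAT2: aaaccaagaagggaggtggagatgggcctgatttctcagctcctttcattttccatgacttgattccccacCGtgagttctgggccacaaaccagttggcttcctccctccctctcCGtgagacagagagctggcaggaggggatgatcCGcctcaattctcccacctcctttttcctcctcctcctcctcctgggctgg
MUC16: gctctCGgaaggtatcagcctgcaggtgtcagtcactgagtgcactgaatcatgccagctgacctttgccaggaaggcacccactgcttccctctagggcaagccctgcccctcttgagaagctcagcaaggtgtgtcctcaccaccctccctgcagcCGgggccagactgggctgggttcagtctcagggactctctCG
WNT7A: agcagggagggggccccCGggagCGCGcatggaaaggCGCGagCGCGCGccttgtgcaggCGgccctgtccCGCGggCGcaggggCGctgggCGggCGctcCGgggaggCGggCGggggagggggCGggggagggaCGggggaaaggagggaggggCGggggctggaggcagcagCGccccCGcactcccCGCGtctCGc
HOXD9: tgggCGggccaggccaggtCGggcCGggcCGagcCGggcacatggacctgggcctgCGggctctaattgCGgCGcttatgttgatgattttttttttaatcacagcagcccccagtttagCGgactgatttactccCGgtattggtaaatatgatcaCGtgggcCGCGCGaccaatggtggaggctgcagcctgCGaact
COL6A2: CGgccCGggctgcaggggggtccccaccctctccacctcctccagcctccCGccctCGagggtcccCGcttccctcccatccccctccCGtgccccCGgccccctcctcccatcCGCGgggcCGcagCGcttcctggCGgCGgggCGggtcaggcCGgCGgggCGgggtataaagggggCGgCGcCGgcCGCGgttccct
FAT2 and MUC16 held 3 CG dinucleotides each, against 26 in WNT7A, 15 in HOXD9 and 22 in COL6A2. CpG observed over expected was 0.198 for FAT2 and 0.163 for MUC16, and 12.6% and 10.3% of 19818 canonical protein-coding promoters of the same length had a lower value. It was 0.846 for WNT7A, 0.874 for HOXD9 and 0.706 for COL6A2, beside a median of 0.766 over those promoters.

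The other group is 201 bp centred on the summit of the Ishikawa JUN peak under E2 inside 3 Ishikawa-only regions away from start sites, given on the plus strand, with AP-1 motifs (TGANTCA, searched on both strands) in capitals. These are places where JUN, LSD1, TAF1 and H3K4me1 were found together. They lie in introns of KAZN (chr1:15303891-15304091) and AFAP1L2 (chr10:116080549-116080749), and just upstream of LOXL4 (chr10:100029272-100029472).
KAZN: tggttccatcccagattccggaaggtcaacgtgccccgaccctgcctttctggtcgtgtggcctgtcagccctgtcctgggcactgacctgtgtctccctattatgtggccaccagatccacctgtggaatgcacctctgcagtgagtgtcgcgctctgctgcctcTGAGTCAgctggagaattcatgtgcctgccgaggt
AFAP1L2: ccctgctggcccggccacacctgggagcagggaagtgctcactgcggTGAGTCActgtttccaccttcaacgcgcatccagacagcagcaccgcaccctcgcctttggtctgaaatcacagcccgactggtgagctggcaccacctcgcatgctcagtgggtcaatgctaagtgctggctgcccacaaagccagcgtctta
LOXL4: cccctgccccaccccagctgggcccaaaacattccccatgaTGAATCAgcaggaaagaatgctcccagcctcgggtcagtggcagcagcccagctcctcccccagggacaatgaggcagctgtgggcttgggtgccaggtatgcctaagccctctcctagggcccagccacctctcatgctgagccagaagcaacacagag
KAZN, AFAP1L2 and LOXL4 each held 1 AP-1 motif, centred 69, 50 and 56 bp from the JUN summit. Of all 18310 Ishikawa JUN peaks under E2, 17.1% held a match in the same 201 bp.

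Ishikawa-only regions were weaker and narrower than common regions. Their fold enrichment, the authors' ratio of ChIP signal to background at the summit, had a median of 11.2 under DMSO (quartiles 8.81 and 14.6), against 19.5 for common regions. The strongest reached 61.2. Median width was 402 bp against 925 bp. The share of eligible regions that were Ishikawa-only was lower in each stronger class. It was 65.7% (64.4 to 67.0%) below a fold enrichment of 10, 48.3% at 10 to 15, 23% at 15 to 20, 10.3% at 20 to 30 and 8.41% (7.11 to 9.86%) at 30 or more. The T-47D H3K4me3 lists were about as long, with 30774 regions under DMSO and 29081 under E2, but their fold enrichment ended at 38.8 and 31.4, against 73.4 and 70.7 in the Ishikawa lists. A region without a T-47D counterpart is one where no T-47D peak passed the threshold of the list, and the deposited lists hold no peak with a −log10 p below 10. How much of the difference comes from weaker T-47D enrichment was not tested. The same rule with the lines exchanged gave 3548 T-47D-only regions of 24756 eligible (14.3%).

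At every strength, regions that were away from start sites and poor in CpG were the most often Ishikawa-only. CpG-rich here means a GC content of at least 50% and CpG observed over expected of at least 0.6 in the 300 bp around the H3K4me3 summit. Below a fold enrichment of 10, 78.6% of the CpG-poor regions away from start sites were Ishikawa-only, against 57.0% of the CpG-rich ones there and 46.5% of the CpG-rich regions at start sites. At 20 to 30 these shares were 48.3% (42.9 to 53.7%), 17.6% (14.2 to 21.5%) and 7.06% (6.35 to 7.81%). Over all strengths, 39.8% of CpG-rich and 74.3% of other regions were Ishikawa-only away from start sites, against 15.9% and 29.5% at start sites.

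**Figure D1:**
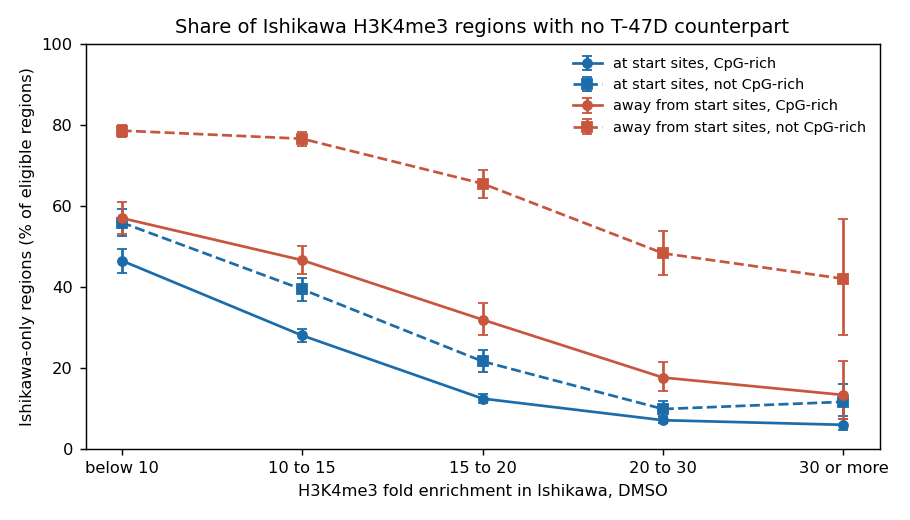
Percentage of eligible Ishikawa H3K4me3 regions that were Ishikawa-only (y axis) against fold enrichment under DMSO (x axis, 5 classes), at start sites (blue) and away from them (red), for CpG-rich (solid) and other (dashed) sequence. Bars are exact 95% intervals; the CpG-poor regions away from start sites lie highest in each class, at 78.6% to 42.0%, and the CpG-rich regions at start sites lowest, at 46.5% to 5.92%.

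The width limit and the T-47D lists set sharp edges on continuous values. The widest Ishikawa-only region, at BNC2, measured 1999 bp, with a fold enrichment of 21.7 under DMSO and 23.1 under E2. The next, near PSMG3 and at DMRTA2, measured 1976 and 1975 bp. Just past the limit lay regions of 2010 bp at PRR5L, 2021 bp at SPTBN5 and 2036 bp near COL4A2, with fold enrichments of 11, 12.6 and 20.6. In all, 87 wider regions met every other condition, and 1700 narrow regions without T-47D H3K4me3 had no peak in the E2 list. Another 2089 eligible regions overlapped 1 of the T-47D lists, 1756 of them the DMSO list. The nearest T-47D H3K4me3 region was a median of 18173 bp away, and 19.4% of Ishikawa-only regions had one within 1000 bp. That share was 31.6% at start sites and 12.1% away from them, so those at promoters more often lay beside an H3K4me3 region of T-47D.

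Start sites were found at 37.5% of Ishikawa-only regions (36.5 to 38.5%), against 66.7% of eligible regions and 85.0% of common regions. T-47D-only regions were at start sites in 28.6% of cases. Of the 5672 regions away from start sites, 56.3% had their summit in an intron, 10.7% in an exon and 33.0% between genes, close to the 51.7%, 13.4% and 34.9% of common regions away from start sites. Their median distance to the nearest start site was 5660 bp. The share of eligible regions that were Ishikawa-only ran from 27.6% (24.5 to 30.9%) on chromosome X to 44.9% (40.4 to 49.4%) on chromosome 18, with 44.1% on chromosome 22 and 43.2% on chromosome 10.

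Ishikawa-only regions lay at start sites of 2403 of 20098 annotated protein-coding genes (12%), of 693 long non-coding RNA genes and of 34 microRNA genes. Of the 2403, 1244 (51.8%) had no T-47D H3K4me3 at any start site. The other 1159 carried T-47D H3K4me3 within 250 bp of a start site of the same gene, often close by. Whether this was the same start site or another was not told apart. In 439 of them an Ishikawa-only region lay over 1000 bp from every T-47D H3K4me3 region. The canonical start site lay under the region in 85.6% of the first group and in 53.8% of the second. In the other direction, 432 protein-coding genes had T-47D H3K4me3 and no Ishikawa H3K4me3, beside 12158 with both and 1612 with Ishikawa H3K4me3 alone.

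The strongest Ishikawa-only regions at protein-coding start sites had no T-47D RNAPII region in any of the 4 lists. They were ranked by the lower of their DMSO and E2 values, which are given here in that order. FAT2, a giant atypical cadherin of epithelia, came first. Its region (chr5:150969545-150971368) reached a fold enrichment of 61.2 under DMSO and 61.6 under E2, with the nearest T-47D H3K4me3 region 54445 bp away. It also carried TAF1 (75.3), LSD1 (19.5), JUN (20.2, and 31.7 under E2), SIN3A (17.7) and H3K4me1 (18.8). MTMR7, a phosphoinositide phosphatase, followed with 55.5 and 54.5, and the region shared by NOX5, a calcium-activated NADPH oxidase, and SPESP1, a sperm protein, with 50.4 and 56.0. The receptor of corticotropin-releasing hormone, CRHR1, had 48.1 and 57.3, but a T-47D region lay 256 bp away, and at C9orf24 one lay 780 bp away. The membrane ubiquitin ligase MARCHF1 stood at the other extreme. Its region had fold enrichments of 52.5 and 45.9, and no T-47D H3K4me3 within 728208 bp. GALNT13, which starts mucin-type O-glycans, had 46.7 and 45.3, and the tetraspanin TSPAN2 had 44.4 and 53.0. The list closed with the deubiquitinase USP44 (44.2 and 53.5), the mitochondrial calcium uptake protein MICU3 (44.1 and 50.1), the cannabinoid receptor partner CNRIP1 (43.1 and 45.5) and the zinc finger gene ZNF132 (43.1 and 41.8). All 12 had a TAF1 region under DMSO, from 8.83 at CNRIP1 to 75.3 at FAT2, and 11 of the 12 had no H3K4me1 region, FAT2 being the exception.

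HOX genes, which give body segments their identity, had an Ishikawa-only region at a start site in 19 of 39 cases, beside 12% of all protein-coding genes. In HOXA, 9 of 11 genes had one, against 4 of 10 in HOXB, 2 of 9 in HOXC and 4 of 9 in HOXD. H3K4me3 of any width at a start site was found at 10 HOXA genes in Ishikawa and 1 in T-47D, at 8 and 6 HOXB genes, at 7 and 6 HOXC genes, and at 6 and 2 HOXD genes. HOXD9 was the strongest, with a fold enrichment of 35.0 under DMSO and 43.9 under E2 over chr2:176986794-176988500, and TAF1 at 54.5. The upstream sequence of this gene is shown above. HOXA4 followed with 29.6 and 31.8, then HOXA13 with 26.7 and 29.5, HOXA7 with 24.9 and 25.5, HOXD8 with 23.4 and 23.1, and HOXA5 with 24.6 and 22.9. Of these 6, none overlapped a T-47D RNAPII region. HOXA10, which is needed for uterine receptivity, was weaker, at 15 and 6.07. A run of 18 Ishikawa-only regions filled chr17:46654904-46702669 from HOXB3 to HOXB9, with fold enrichments of 7.42 to 17.8.

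Genes of Wnt signalling, which pattern the Müllerian duct and renew epithelia, had an Ishikawa-only region in 25 of 52 cases, and 16 of these 25 had no T-47D H3K4me3 at any start site. Among the ligands, 11 of 18 WNT genes had one. WNT10A had fold enrichments of 36 and 52, WNT7A 35.1 and 37.1, and WNT9B 30.8 and 33.1, and none of the 3 overlapped a T-47D RNAPII region. WNT7A, which is expressed in the uterine epithelium, carried TAF1 (28.2), SIN3A (12.6) and H3K4me1 (10.2), whereas WNT10A and WNT9B had no TAF1 region under DMSO. The R-spondins, secreted proteins that strengthen Wnt signals, had one in 3 of 4 cases, with RSPO3 at 27.6 and 38.3. Receptors were fewer, with 2 of 10 frizzled genes, FZD6 at 27.3 and 26.9 and FZD9 at 8.81 and 14.3, and 2 of 3 LGR genes. Secreted antagonists were also present. DKK1, DKK2 and DKK3 had 19.3, 23 and 24.2 under DMSO, and SFRP5 and SFRP4 had 24.9 and 22.6. The SFRP5 region also overlapped T-47D RNAPII in 1 of the 4 lists (10.6). None of the DKK, SFRP or RSPO genes had T-47D H3K4me3 within 250 bp of a start site, although such a region lay 436 bp from that of DKK1. Of the Wnt feedback genes, AXIN2 (13.3) and NKD1 (19.1) had an Ishikawa-only region and also T-47D H3K4me3 546 and 230 bp away.

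Genes of the TGF-β and BMP family had one in 16 of 48 cases, 11 of them without T-47D H3K4me3. Among ligands, 5 of 7 GDF genes, 2 of 9 BMP genes and 0 of 3 TGFB genes had one, and both chordin genes, which encode antagonists, did. Among receptors, 1 of 3 BMPR genes, 0 of 4 activin receptors and 0 of 3 TGFBR genes had one. BMP8A had fold enrichments of 24.6 and 34.4 and overlapped T-47D RNAPII in 1 list (18.7). GDF6 had 24.5 and 24.9. CHRD, a secreted antagonist of BMP, had 20.6 and 17.2, and the related CHRDL1 had 18.8 and 28.8. At FSTL3, an activin-binding protein with 25.6 and 34.2, a T-47D H3K4me3 region lay 377 bp away. T-47D RNAPII there was 96.3 in DMSO replicate 1, without a peak in DMSO replicate 2, and 27.8 and 16.9 under E2. Receptor tyrosine kinases and growth factors had one in 18 of 62 cases, and 12 of the 18 genes had T-47D H3K4me3 at a start site, the same or another. Those without any were led by MERTK (22.9 and 20.6), a receptor for dying cells, and included EPHB2, EPHA5 and the growth factors NRG1 and FGF2 (15.7 and 21.0).

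Genes that mark the tissues of origin were compared with the labels of the lines. Of 28 endometrial and Müllerian genes, 9 had an Ishikawa-only region. The Müllerian factor EMX2 had fold enrichments of 29.3 and 32.9, HAND2, a progesterone-regulated factor of the uterine stroma, had 19.7 and 10.8, and neither had T-47D H3K4me3 at a start site. Any Ishikawa H3K4me3 without T-47D H3K4me3 was found at 9 of the 28, and the reverse at 3 (MSX2, TBX3 and WNT5A). PAX8, the defining factor of Müllerian epithelium, belonged to the former but not to the Ishikawa-only regions, because one region was 3224 bp wide, with a fold enrichment of 14.5, and the other, of 232 bp and 7.23, had no peak in the E2 list. Of 22 luminal breast factors, 3 had an Ishikawa-only region, among them MYB and KLF5, which lay 553 and 234 bp from a T-47D region. ELF5 and SPDEF had T-47D H3K4me3 alone, 18 of the 22 had H3K4me3 in both lines, and 0 had it in Ishikawa alone. Markers of fibroblasts, endothelium and immune cells had no Ishikawa-only region (0 of 19).

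Mesenchymal genes had an Ishikawa-only region in 8 of 25 cases. COL6A2, a collagen VI chain whose upstream sequence is shown above, had fold enrichments of 35.0 and 32.3 and no T-47D region within 85265 bp. Several transcription factors of epithelial to mesenchymal transition were among them, while SNAI2 and PRRX1 had T-47D H3K4me3 alone. ZEB2 (22.3 and 22.2) and TWIST2 (19 and 26.3) had no T-47D H3K4me3 at a start site and no TAF1 region. TWIST1 (31.4 and 34.6) and ZEB1 (21.4 and 36.1) lay 212 and 107 bp from a T-47D region. Both overlapped T-47D RNAPII in DMSO replicate 1 (24.5 and 19.5) and not in DMSO replicate 2. The ZEB1 region also carried LSD1, at 46.8 under DMSO and 90.5 under E2. The neural cadherin CDH2 had 22 and 20.2, with T-47D H3K4me3 626 bp away. Epithelial keratin and adhesion genes had one in 7 of 35 cases. MUC16, which encodes the antigen CA-125, had 19.6 and 18.5 with H3K4me1, TAF1 and SIN3A (9.38, 13.1 and 10.9), and KRT15 was the other gene of this list without T-47D H3K4me3 within 250 bp of a start site, although such a region lay 365 bp from its own. At KRT15 and at the desmosome gene DSP, T-47D RNAPII was found in both DMSO replicates (28.0 and 14.7, and 51.0 and 13.2).

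Of the remaining lists, some lay near the 12% of all genes and others below it. Known estrogen-induced genes had an Ishikawa-only region in 4 of 30 cases, the elongase ELOVL2 (27.7 and 33.6), CELSR2, SLC7A2 and FHL2, while GREB1, IGFBP4 and RERG had T-47D H3K4me3 alone. Solute carriers had one in 51 of 373 cases, led by the bicarbonate cotransporter SLC4A4 (38.8 and 42.4). Zinc finger genes of chromosome 19 had one in 19 of 240 cases, protocadherins in 2 of 65, and cancer-testis genes in 1 of 66, MAGEA12 (24.7 and 25.7). Of 20 genes used by all cells, 2 had one, among them HPRT1, with T-47D H3K4me3 241 bp away. These lists were drawn up with earlier results of the same data known, so their counts are descriptions.

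**Figure D2:**
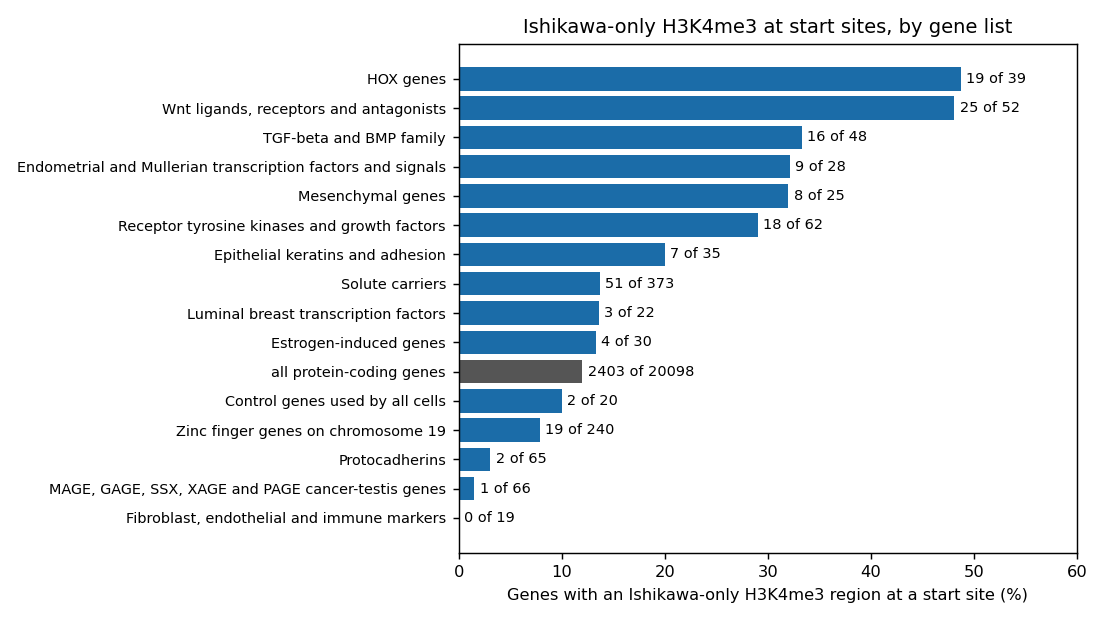
Percentage of annotated genes with an Ishikawa-only H3K4me3 region within 250 bp of a start site (x axis), for each gene list (blue) and for all protein-coding genes (grey); the counts stand at the bars. HOX (19 of 39) and Wnt genes (25 of 52) stand highest, and markers of other cell types lowest (0 of 19).

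Factors that Ishikawa carried at these regions were not used to choose them. At start sites, a TAF1 region under DMSO was found at 51.1% of Ishikawa-only regions, against 87.5% of common regions, with 68.8% over all eligible regions. SIN3A in stripped medium was found at 44.6%, against 86.4% at common start sites and 65.8% of eligible regions. Away from start sites, over all strengths, the Ishikawa-only regions came closer to their common counterparts, with TAF1 at 46.9% against 53.2% and SIN3A at 39.5% against 55.6%. H3K4me1 went the other way. It was found at 68.1% (66.9 to 69.4%) of Ishikawa-only regions away from start sites and 23.8% of those at start sites, against 21.9% and 8.85% of common regions and 25.8% of eligible regions. At start sites, TAF1 was less frequent at Ishikawa-only than at common regions in each of the 5 strength classes. The shares were 42.4% and 55.8% below a fold enrichment of 10, and 45.4% and 75.2% at 10 to 15. They were 56.4% and 89.0% at 15 to 20, and 69.5% and 93.4% at 20 to 30. In the strongest class, at 30 or more, they were 88.5% (80.7 to 93.9%) and 96.8%, where the gap was smallest. Away from start sites, TAF1 was at least as frequent at Ishikawa-only as at common regions in each of the 5 classes. The shares were 36.6% and 29.1% below 10, 48.6% and 48.3% at 10 to 15, and 85.3% and 80.8% at 30 or more. SIN3A was lower at Ishikawa-only regions in each class there, though by little below 10 (32.6% against 33.0%). H3K4me1 away from start sites stayed between 63.3% and 70.6% in all 5 strength classes, against 16.3% to 28.4% in common regions.

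JUN and LSD1 were also found more often away from start sites. JUN under DMSO was found at 16.4% of Ishikawa-only regions away from start sites and 5.65% of those at start sites, beside 7.08% of eligible regions, and 12.6% and 4.33% of them by place. Under E2 it was found at 49.9% and 22.3%, beside 41.5% and 34.5%. LSD1 under DMSO was found at 33.0% and 14.1%, beside 20.8% of eligible regions, and 27% and 17.7% by place. MAX, the partner of MYC, was found at 8.30% and 4.83% under DMSO, beside 9.05% of all eligible regions and 7.45% and 9.84% of eligible regions away from and at start sites. The retinoic acid receptor RARA was found under E2 at 9.82% and 4.30%, beside 8.49% of all eligible regions and 8.06% and 8.71% by place. The Ishikawa MYC lists (61 and 2 regions) held no Ishikawa-only region. Libraries labelled H3K27me3 were found at 14.5% of the regions away from start sites and 4.74% of those at start sites under DMSO, beside 5.63% of eligible regions, and 11.1% and 2.89% by place. Under E2 the shares were 11.4% and 13.0%, beside 12.5% and 26.7%. H3K27me3 is known as the mark of Polycomb repression, but 81.5% of the Ishikawa DMSO list and 85.7% of the T-47D DMSO list overlapped H3K4me3 of the same cells, so these libraries are given by their label only.

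**Figure D3:**
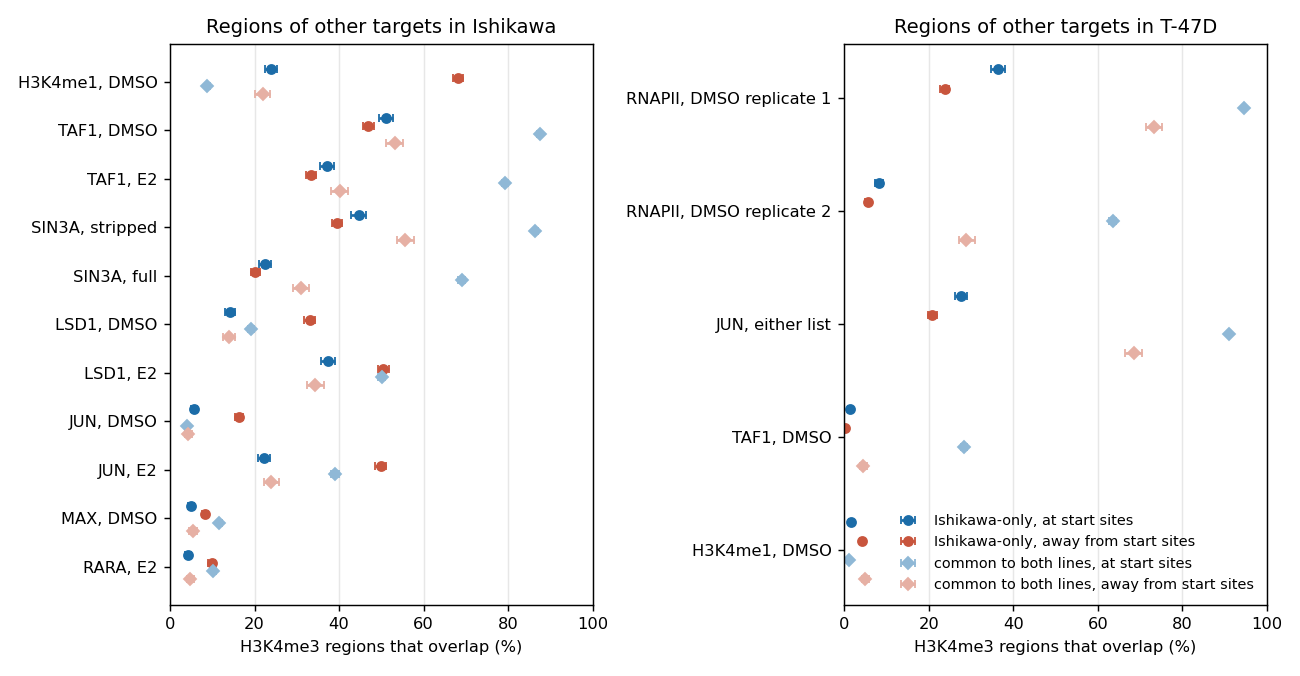
Percentage of H3K4me3 regions (x axis) that overlapped a region of each other target (y axis), in Ishikawa (left) and T-47D (right), for Ishikawa-only regions (circles) and common regions (diamonds), at start sites (blue) and away from them (red); bars are exact 95% intervals. Ishikawa-only regions away from start sites stand apart at H3K4me1, with 68.1% against 21.9% for common regions. At T-47D RNAPII both kinds of Ishikawa-only region lie far to the left of common regions, which were chosen for T-47D H3K4me3.

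TAF1 and H3K4me1 divided the Ishikawa-only regions into 4 kinds. At start sites, 35.8% had TAF1 alone, 40.4% had neither, 15.3% had both and 8.48% had H3K4me1 alone. Away from start sites, both together (36.6%) and H3K4me1 alone (31.6%) were the most frequent, with neither at 21.5% and TAF1 alone at 10.4%. The kinds differed in base sequence. CpG-rich sequence lay under 76.8% of start-site regions with TAF1 alone and 78.4% of those with neither, but under 17.1% of those with both and 9.38% of those with H3K4me1 alone. Away from start sites, the shares were 49.0% and 47.1% without H3K4me1, and 4.92% and 2.96% with it. Median fold enrichments spanned 9.63 to 14.0 over the 8 classes. Their median widths differed more. At start sites they were 714 bp with both, 485 bp with TAF1 alone, 338 bp with H3K4me1 alone and 378 bp with neither. Away from start sites they were 561, 402, 318 and 294 bp in that order. A wider region can meet more peaks at an overlap of 1 bp, and the part of this in the shares below was not tested.

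Regions with both TAF1 and H3K4me1 also carried most of the other factors. Away from start sites, JUN under E2 was found at 85.4% of them, LSD1 under E2 at 85.9% and SIN3A at 66.0%. With TAF1 alone these were 43.0%, 57.5% and 61.6%, with H3K4me1 alone 38.6%, 30% and 18.6%, and with neither 9.35%, 16.7% and 14.6%. At start sites JUN was again most frequent with both (73.8%) and least frequent with neither (2.55%). The order of the middle classes was reversed there, with JUN slightly more frequent with H3K4me1 alone than with TAF1 alone. SIN3A was found there at 75.4% and 68.6% with TAF1, with and without H3K4me1, against 22.2% and 16.3% without TAF1, as it was away from start sites. Regions at start sites with neither mark were thus mostly CpG-rich and carried few of the other targets. Those at ZEB2, TWIST2, GDF6, FGF2, NRG1 and SLC18A2 had 0 of the other targets under DMSO. The contrast between both marks and neither was also present in common regions, so it is not particular to the Ishikawa-only ones. In common regions away from start sites, JUN, LSD1 and SIN3A were found at 70.1%, 76.1% and 82.4% with both. With neither they were found at 2.58%, 11.1% and 23.7%. At common start sites, JUN was found at 58.5% with both and 2.34% with neither.

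**Figure D4:**
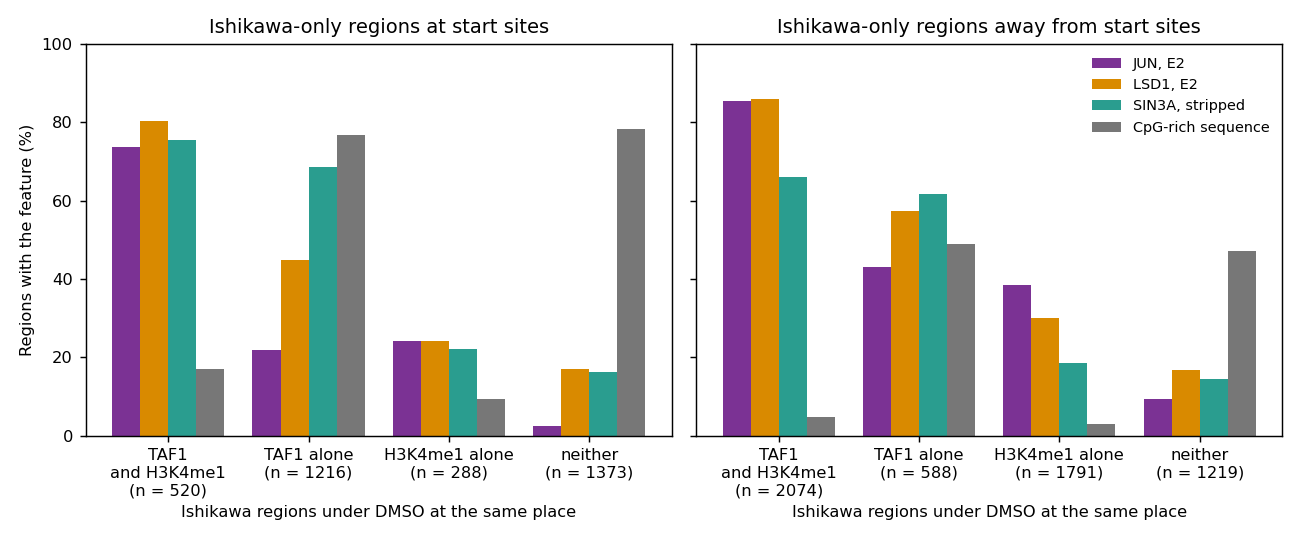
Percentage of Ishikawa-only H3K4me3 regions (y axis) with JUN under E2, LSD1 under E2, SIN3A in stripped medium, or CpG-rich sequence, by whether TAF1 and H3K4me1 regions overlapped under DMSO (x axis), at start sites (left) and away from them (right). Regions with both marks away from start sites have JUN at 85.4% and CpG-rich sequence at 4.92%, and those with neither at start sites have JUN at 2.55% and CpG-rich sequence at 78.4%.

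The strongest regions away from start sites differed in how many other targets they carried. Near ARHGAP40 (chr20:37302339-37303128, 26633 bp from its start) the fold enrichment was 45.8 under DMSO and 56.0 under E2. Introns of SFMBT1 (47.2 and 39.9) and of the histone deacetylase HDAC5 (38.0 and 52.3) each held one. ZNF184 (36.4 and 43.0), KRT78 (38.9 and 39.5) and LOXL4 (36 and 36.2) were the nearest genes of 3 others. The LOXL4 region, with 7 other targets, lay 258 bp from the start site, so just outside the limit. Near POM121L2 the values were 48.3 and 37.8, with LSD1 (18.7) as its 1 other target. None of these regions overlapped T-47D RNAPII under DMSO.

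The regions with the most other targets were not the strongest for H3K4me3. In an intron of KAZN, which encodes a desmosome-associated protein, 8 targets met at chr1:15303560-15304870, where H3K4me3 was 23 and 17.8, LSD1 40.5 under DMSO and 102.0 under E2, and JUN 36.1 and 99.3, with T-47D RNAPII in 1 E2 replicate (20.2). In AFAP1L2, an adaptor of SRC signalling, H3K4me3 was 20.4 and 25.8, JUN 64.4 and 110.0, and LSD1 63.0 and 87.6. Near TXN2 and KRT80 the pattern was the same but T-47D RNAPII was present, at 55.0 and 12 in the DMSO replicates near TXN2 and at 13.0 in 1 of them near KRT80. ZMIZ1 held 2 such regions in intronic sequence, which shared their JUN peak (43.1, and 73.9 under E2). Over all Ishikawa-only regions, 2118 had 0 other targets under DMSO 209 had 7 and 1 had 8.

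Some loci gathered many regions. With regions up to 10000 bp apart joined, the 9069 fell into 6283 loci, of which 4523 held 1 region and 106 held 5 or more. These were counted after the values were seen. The largest, at chr5:139032861-139090350, held 20 regions over CXXC5, a CpG-binding zinc finger protein, 18 of them away from start sites, with fold enrichments of 6.66 to 22.6. The others at the top were the HOXB cluster with 18 and, with 12 each, CUEDC1, AMOTL2, an angiomotin of the Hippo pathway, and chr22:39679452-39706014. In such loci the regions share their gene and surroundings and are not independent.

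AP-1 motifs were found at 11.1% (10.2 to 11.9%) of Ishikawa-only regions away from start sites in the 300 bp around the H3K4me3 summit, at 4.83% of those at start sites, at 5.46% of eligible regions and at 6.07% of common regions away from start sites. With JUN under E2 the first share was 14.6%, and without it 7.53%, against 13.7% and 6.26% of eligible regions away from start sites. At the JUN peaks themselves, Ishikawa-only start sites stood above common regions, which were not split by place there. The motif lay within 50 bp of the JUN summit at 14.3% of JUN peaks under E2 on Ishikawa-only regions away from start sites (375 of 2626), 11.1% of those on Ishikawa-only start sites, 3.18% of those on common regions, and 19.3% of those without Ishikawa H3K4me3. Median JUN fold enrichments were 14.4, 10.6, 7.23 and 10.5 in that order, so JUN strength did not follow the same order as the motif.

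**Figure D5:**
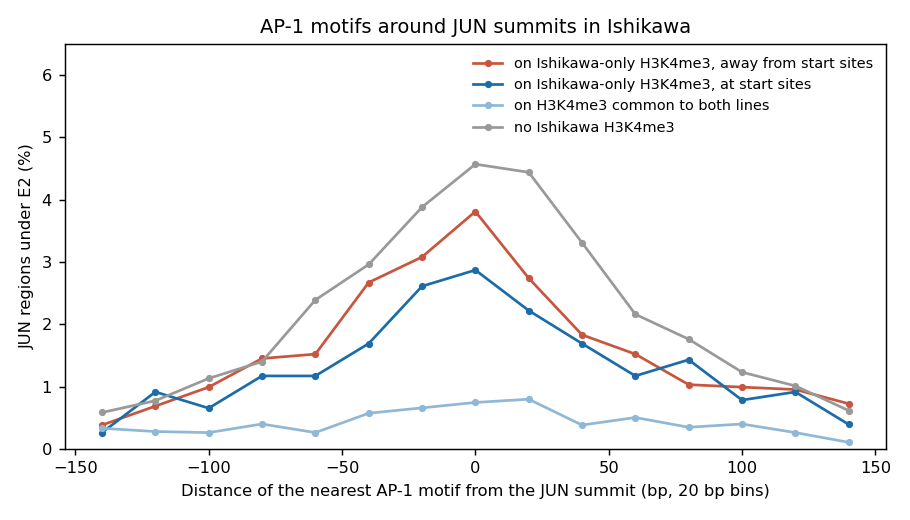
Percentage of Ishikawa JUN peaks under E2 (y axis) whose nearest AP-1 motif lies at each distance from the JUN summit (x axis, 20 bp bins), for JUN on Ishikawa-only H3K4me3 away from and at start sites, on common H3K4me3 and without Ishikawa H3K4me3. The share at the summit is 3.81% on Ishikawa-only regions away from start sites, 2.87% at start sites, 0.744% on common regions and 4.57% without H3K4me3.

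The other 15 motifs searched differed between the sets in both directions. The SP motif (GGGCGG) was found at 52.9% of Ishikawa-only regions at start sites and 26.2% of those away, against 54.2% and 39.4% of common regions, and 46.6% of eligible regions. The ETS motif (CCGGAAG) was found at 5.36% and 3.12%, against 8.47% and 4.98%, and the TFAP2 motif (GCCNNNGGC) at 31.2% and 20.9%, against 29.4% and 24.8%. Away from start sites, the TEAD motif (GGAATG) was found at 20.5% of Ishikawa-only and 16.5% of common regions, beside 14.4% of eligible regions. The letters AGATAA, read by GATA factors, were found at 7.44% and 6.07% there, and the core promoter letters TATAAA at 6.29% and 4.94%. The full estrogen response element was found at 3 Ishikawa-only regions and 10 eligible regions, and the HNF1 motif at 0 eligible regions. Such matches describe letters, not bound sites.

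The E2 and DMSO lists of Ishikawa differed at many of these regions, with the same direction over all eligible regions for JUN, LSD1, RARA, TAF1, H3K4me1 and SIN3A. JUN was found under E2 alone at 27.3% of Ishikawa-only regions (29.8% of eligible), at 33.6% away from start sites and 16.7% at them. JUN was found at 1120 of them under DMSO and at 3586 under E2. LSD1 was found under E2 alone at 22.7% (27.1% of eligible) and RARA at 7.69% (8.06%), the number with RARA being 6 under DMSO and 703 under E2. TAF1 was found under DMSO alone at 15.2% (11.9%), H3K4me1 under DMSO alone at 5.91% (4.75%), and SIN3A in stripped medium alone at 22.2% (20.6%). Where JUN was present under both treatments away from start sites, its fold enrichment was higher under E2 at 96.6% of 924 regions, by a median of 1.96 times, against 1.74 times over eligible regions. MAX was found under DMSO alone at 2.73%, against 5.35% of eligible regions, and the library labelled H3K27me3 under E2 alone at 7.85%, against 19.2%. The lists differed in length, with 3768 and 18311 JUN regions, 137 and 2883 RARA regions and 2199 and 6992 regions labelled H3K27me3 under DMSO and E2, and the part of this in the shares was not tested. With 1 library per treatment, treatment and library cannot be told apart.

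H3K4me3 itself, whose presence under both treatments was a condition of the choice, had a fold enrichment at least 1.5 times higher under E2 at 12.6% of Ishikawa-only regions (9.72% of eligible) and 1.5 times lower at 2.91% (2.14%). The median ratio was 1.09 in both sets. The E2 value was the highest peak that overlapped, which raises the ratio where there were several. FHL2, with 6.41 under DMSO and 22.4 under E2, and MSX1, with 7.95 and 21.5, were among the listed genes with a higher value under E2, and HOXA10 among those with a lower one.

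Ishikawa-only regions were chosen to lack T-47D H3K4me3, and common regions to have it. How far this choice sets the T-47D shares below was not tested. In T-47D, RNAPII had a peak at a minority of the Ishikawa-only regions. It was found in at least 1 DMSO replicate at 28.7% of Ishikawa-only regions (27.7 to 29.6%), against 91.5% of common regions and 68.4% of eligible regions, and in both replicates at 6.27% against 58.2%. The replicates differed, with 28.5% in replicate 1 and 6.48% in replicate 2, whose lists held 39371 and 21291 regions. No RNAPII was found in any of the 4 lists at 68.9%. T-47D JUN in either list was found at 23.4% (63.6% of eligible), T-47D TAF1 under DMSO at 0.529% (14.7%), and T-47D H3K4me1 under DMSO at 3.20% (2.48%). The T-47D library labelled H3K27me3 under DMSO was found at 1.93%, beside 17.1% of eligible regions. That list lay largely on T-47D H3K4me3, and regions with T-47D H3K4me3 were left out by choice. The T-47D TAF1 and H3K4me1 lists held 4591 and 6408 regions, against 19349 and 28411 in Ishikawa.

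T-47D RNAPII was found more often where the gene also had T-47D H3K4me3, which for most of these genes lay within 1000 bp of the region. At start-site regions of genes without T-47D H3K4me3, RNAPII was found under DMSO at 21.8% (19.8 to 24.0%) in replicate 1 and 3.71% in replicate 2. Where the gene had T-47D H3K4me3 at a start site, the same or another, the shares were 55.0% (52.3 to 57.7%) and 13.6%. Ishikawa TAF1 differed less between the groups, with 45.4% and 56.2%, and their median H3K4me3 fold enrichments were 13.9 and 11.7. At start sites it was found less often at stronger regions. T-47D RNAPII in either DMSO replicate was found at 43.3% of Ishikawa-only start-site regions with a fold enrichment below 10 and at 15.4% (9.06 to 23.8%) of those at 30 or more, whereas in common start-site regions the shares were 84.2% and 96.7%. Away from start sites, the shares over the 5 strength classes were 23%, 24.0%, 24.9%, 32.2% and 17.6% (6.76 to 34.5%), with no such order.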

How the data were processed

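ChIP-seq peak lists of Ishikawa and T-47D cells were used. Per the study's methods, the authors aligned reads to hg19 with Bowtie and called peaks with MACS2 at a q-value of 0.05 on each library (Bowtie 1.1.2 and MACS2 2.1.0.20140616 in the submitters' processing notes). In the deposited lists, the authors give each peak a score, the fold enrichment at the summit as a ratio, and −log10 p and q values. No deposited list held a peak with a −log10 p below 10, so the lists are stricter than that q-value. Peak lists hold no counts, so depth is unknown, and a place without a peak is one that did not pass the caller's threshold.

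Lists were compared by an overlap of 1 bp on chromosomes 1 to 22 and X. Start sites within 250 bp came from GENCODE 44 on GRCh37. Ishikawa fold enrichment under E2 is the highest of the overlapping peaks. Shares have exact Clopper-Pearson 95% intervals, which cover counting error only, and no test was made. Scripts ran in Python 3.11.15 with numpy 2.4.6, pandas 2.3.3, scipy 1.17.1 and matplotlib 3.10.9, and were tested on simulated data.

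The regions, the gene lists and the motifs were chosen with earlier results of these data known. Named genes were the 12 strongest regions at protein-coding start sites, the 8 strongest away from them and the 8 with the most other targets, up to 6 genes per list by fold enrichment, and 3 regions on each side of the width limit. Other list members, those with the other line's H3K4me3 alone, and the loci with many regions were named after their values were seen. The 16 motifs were searched on both strands. Those without a value in the text were CRE, E-box, CCAAT, FOX, SOX, NRF1 and GRHL. The alternatives were another overlap, enrichment minimum, distance to T-47D regions, base list, width limit, start-site set and RNAPII replicate rule. The treatment labels of the T-47D JUN lists could not be checked, so either list was used. Some items that the naming rule selects are not reported here.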

Additional observations from a re-analysis of the deposited data

Results flagged for a closer look

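For 5 targets, the number of Ishikawa-only regions with a peak moved in opposite directions in the 2 lines. Each rests on 1 library per treatment, and the difference was not tested. Some of the moves were of very few regions, and the T-47D lists were short. The T-47D SIN3A lists held 75 regions in stripped and 649 in full medium. Under DMSO and E2, the T-47D RARA lists held 844 and 755 regions and the T-47D MAX lists 199 and 1492. Over all eligible regions the lines also moved in opposite directions, by -11.1 and 3.80 percentage points for TAF1, -19.7 and 1.68 for SIN3A, 8.06 and -0.121 for RARA, -3.89 and 4.68 for MAX and 16.3 and -17.1 for the libraries labelled H3K27me3 in Ishikawa and T-47D, so the moves are not a result about the Ishikawa-only regions. TAF1 was found at 4398 regions under DMSO and 3154 under E2 in Ishikawa, and at 48 and 66 in T-47D, a difference between the lines of -13.9 percentage points (Ishikawa minus T-47D). SIN3A was found at 3757 regions in stripped and 1904 in full medium in Ishikawa, and at 0 and 1 in T-47D, a difference of -20.4 points. RARA was found at 6 and 703 regions in Ishikawa under DMSO and E2, and at 26 and 22 in T-47D, a difference of 7.73 points. MAX was found at 635 and 624 in Ishikawa and at 3 and 43 in T-47D, a difference of -0.562 points. The libraries labelled H3K27me3 were found at 982 and 1087 in Ishikawa and at 175 and 0 in T-47D, a difference of 3.09 points, and the T-47D E2 list of that label held 107 regions in all against 6305 under DMSO.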

How the results depend on the processing

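Of 33 alternative values, 15 moved by less than their interval or by less than 1.5 times, and 18 moved further. A minimum fold enrichment of 10 in both Ishikawa lists left 4868 regions, with 46.3% at start sites, H3K4me1 at 46.0%, TAF1 at 56.6% and the T-47D library labelled H3K27me3 at 1.58%. A reciprocal overlap of 50% gave 53.6%, 38.8%, 60% and 8.52% for the same shares. With no T-47D H3K4me3 within 1000 bp, 31.8% lay at start sites, 58.9% had H3K4me1 and 1.39% the T-47D library labelled H3K27me3. The start-site share was 48.1% with a window of 1000 bp and 31.5% with protein-coding start sites only. Within 300 bp centred on the summit, H3K4me1 was found at 48.5% and TAF1 at 46.8%. T-47D RNAPII was found at 6.27% with both DMSO replicates required, and at 6.48% to 28.5% with 1 replicate left out, so replicate 1 decides the value. The cause of these moves was not tested. H3K4me1 was less frequent at start sites (18.2% to 30.1%) than away from them (62.5% to 72.3%) under the 5 other ways of choosing the regions, whereas TAF1 changed order at the minimum of 10 (55.2% and 57.8%). No paired analysis was possible because the results come from no test. Depth is unknown, so a missing peak in the short or weak T-47D lists is not an absence of the mark.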
